A study of Mus musculus with 46 samples.

Results

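T cells of mouse colon were described from single-cell counts of molecules (UMIs, each a molecule counted once). A cell was taken as a T cell if it had 200 or more detected genes, no UMI of Epcam and none of Cd79a. It also had to hold 1 or more UMI of at least 2 of 5 markers (Cd3d, Cd3e, Cd3g, Cd2 and Cd247). By this rule 159 of 25658 cells were T cells, in 3 deposited matrices named CT, Ime and Met. The CT matrix held 57 of 8000 cells, the Ime matrix 28 of 4730 and the Met matrix 74 of 12928. The cells were thus chosen by their measured UMIs of these 7 genes, whose levels are a description and not a result.

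The cells came from colon of male C57BL/6J mice, and the series' design gives 12 weeks of drug in the drinking water for this experiment, with no age of the animals. Metformin is a biguanide used against type 2 diabetes, and imeglimin is a related tetrahydrotriazine. The 3 matrices belong to 1 sample, titled as a control, whose treatment label lists control, metformin and imeglimin together, and only the names under which the matrices were deposited tie them to a treatment. The sources used here give neither the drug dose nor the number of mice behind this sample. No matrix has a replicate, so no test was made between them. The study also holds 45 bulk RNA-seq libraries in 15 groups of 3. The 9 colon libraries made after 4 weeks, from controls given no drug and from mice given 3 mg/mL imeglimin or metformin in the drinking water, were used for the tests at the end. All animals were C57BL/6J males with no allele or transgene named.

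T cells recognise antigen through a receptor whose alpha and beta, or gamma and delta, chains bind the antigen, and whose CD3 chains and zeta chain (Cd247) carry the signal inward. The kinase Lck phosphorylates these chains, Zap70 docks on them, and the adaptor Lat spreads the signal. CD4 marks helper and most regulatory T cells, and CD8 marks cytotoxic T cells. In the colon, T cells sit in the lamina propria and between the epithelial cells, where intraepithelial lymphocytes bind epithelial E-cadherin through the integrin chain Itgae (CD103).

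The 3 CD3 genes lie together on chromosome 9, and the 250 bases before their start sites and before that of Cd247 are shown because these genes define the cells. The RefSeq table of promoters (GRCm38.p6) held 4 of the 5 markers, and Cd2 was not matched. The Cd3g window is chr9:44980432-44980681 on the minus strand, and the Cd3d window is chr9:44981536-44981785 on the plus strand, with 1355 bases between the start sites of these divergent genes. The Cd3e window is chr9:45009612-45009861 on the minus strand, and the Cd247 window is chr1:165788431-165788680 on the plus strand. Capitals mark the ETS core GGAAG and the E-box CANNTG, searched on both strands, with no overlap between marked motifs.
Cd3g: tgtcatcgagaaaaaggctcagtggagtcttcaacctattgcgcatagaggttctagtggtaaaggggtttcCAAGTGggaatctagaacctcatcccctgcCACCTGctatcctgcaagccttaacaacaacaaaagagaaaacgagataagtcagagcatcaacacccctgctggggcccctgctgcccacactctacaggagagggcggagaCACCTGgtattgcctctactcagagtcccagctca
Cd3d: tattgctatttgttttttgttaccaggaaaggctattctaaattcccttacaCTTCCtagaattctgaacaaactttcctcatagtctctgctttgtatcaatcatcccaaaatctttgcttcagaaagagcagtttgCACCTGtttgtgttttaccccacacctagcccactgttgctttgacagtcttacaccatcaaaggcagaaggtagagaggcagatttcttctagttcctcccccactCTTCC
Cd3e: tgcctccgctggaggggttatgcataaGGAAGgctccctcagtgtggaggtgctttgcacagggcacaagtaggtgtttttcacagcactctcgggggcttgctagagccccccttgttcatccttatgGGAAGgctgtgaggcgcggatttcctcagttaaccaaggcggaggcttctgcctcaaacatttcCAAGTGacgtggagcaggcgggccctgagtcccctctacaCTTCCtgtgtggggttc
Cd247: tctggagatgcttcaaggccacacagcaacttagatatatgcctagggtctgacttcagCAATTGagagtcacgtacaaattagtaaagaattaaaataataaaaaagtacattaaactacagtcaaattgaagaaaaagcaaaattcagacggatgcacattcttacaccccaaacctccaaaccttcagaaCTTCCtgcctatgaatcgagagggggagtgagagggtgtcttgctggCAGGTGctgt
The ETS core stood 2 times in the Cd3d window, 3 times in that of Cd3e and 1 time in that of Cd247, and 64.1% of 32841 promoter windows of this length held it. The E-box stood 3 times in the Cd3g window, 1 time each in those of Cd3d and Cd3e and 2 times in that of Cd247, and 66.2% of all windows held it. The TATA box TATAAA (12.4% of all windows) and the RUNX core TGTGGT (14.0%) were in none of the 4 windows.

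Depth differed between the matrices. The median T cell held 1029 UMIs in the CT matrix, 782.5 in the Ime matrix and 2206 in the Met matrix, and the T cells of a matrix held 69803, 23432 and 201799 UMIs in all. Epcam-positive cells were deeper, with medians of 4608.5, 2718.5 and 8173 UMIs, and made up 63.0%, 54.8% and 80.3% of the cells. No full barcode was shared between matrices, but droplet barcodes were: 625 between CT and Ime, 1686 between CT and Met and 1007 between Ime and Met. Of the T cells, 34 (16, 6 and 12) lay in such a droplet, and in 0 of these was the partner a T cell, while in 24 it was an Epcam-positive cell. All intervals below are 95% exact intervals (Clopper-Pearson for shares, Poisson for levels) and cover counting error only.

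The share of T cells was 0.713% (0.540% to 0.922%) in the CT matrix, 0.592% (0.394% to 0.854%) in the Ime matrix and 0.572% (0.450% to 0.718%) in the Met matrix. With every cell thinned to 500 UMIs before the rule was applied, an alternative chosen after seeing the data, the shares were 0.375% (30 of 7994 cells), 0.424% (20 of 4722) and 0.449% (58 of 12918). The order of the matrices turned with thinning, and within each of these settings the 3 intervals overlapped. The order also depended on the rule. Without the Epcam condition the shares were 0.90% (0.705% to 1.13%), 0.677% (0.463% to 0.954%) and 1.68% (1.46% to 1.92%), with Met above the others. With 1 or more marker they were 1.93% (1.64% to 2.25%), 2.01% (1.63% to 2.45%) and 1.03% (0.862% to 1.22%), with Met below the others.

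Cells near the edge of the rule differed from its members in other T cell genes. Of the T cells, 58 held 2 markers, 58 held 3, 32 held 4 and 11 held all 5, and 223 further cells met every other condition with 1 marker. Trac, the constant chain of the alpha receptor, was detected in 37.0%, 31.3% and 53.3% of the 2-marker cells of CT, Ime and Met, and in 15.5%, 5.97% and 10.2% of the 1-marker cells. Lck was detected in 63.0%, 56.3% and 66.7% of the 2-marker cells and in 17.5%, 11.9% and 20.3% of the 1-marker cells. Cells that failed on Epcam alone numbered 15, 4 and 143, of which 4, 2 and 62 held a single Epcam UMI. Cells that failed on Cd79a alone numbered 13, 2 and 12. Among the members, 154 of 159 held a CD3 chain (Cd3d, Cd3e or Cd3g) and 114 of 159 held Ptprc, the CD45 phosphatase of all leukocytes.

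Levels in cells are given as CPM, the UMIs of a gene per 1000000 UMIs of the T cells of a matrix. The assay reads each gene through its own probes, so levels of different genes are not compared. The chain Cd3d stood at 845 (643 to 1090) CPM in CT, 726 (423 to 1162) in Ime and 684 (575 to 808) in Met, and was seen in 35, 10 and 57 T cells. Cd3e stood at 888, 1152 and 738 CPM, in 34, 18 and 53 cells. Cd3g stood at 716, 1024 and 525 CPM, in 31, 16 and 48 cells. Cd2, a receptor that binds other cells' surface proteins, stood at 731, 597 and 545 CPM, in 28, 13 and 49 cells. Cd247 stood at 444 (302 to 630), 811 (488 to 1266) and 322 (249 to 411) CPM, in 27, 14 and 40 cells. These genes chose the cells, so no difference between matrices is read from their levels.

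**Figure D1:**
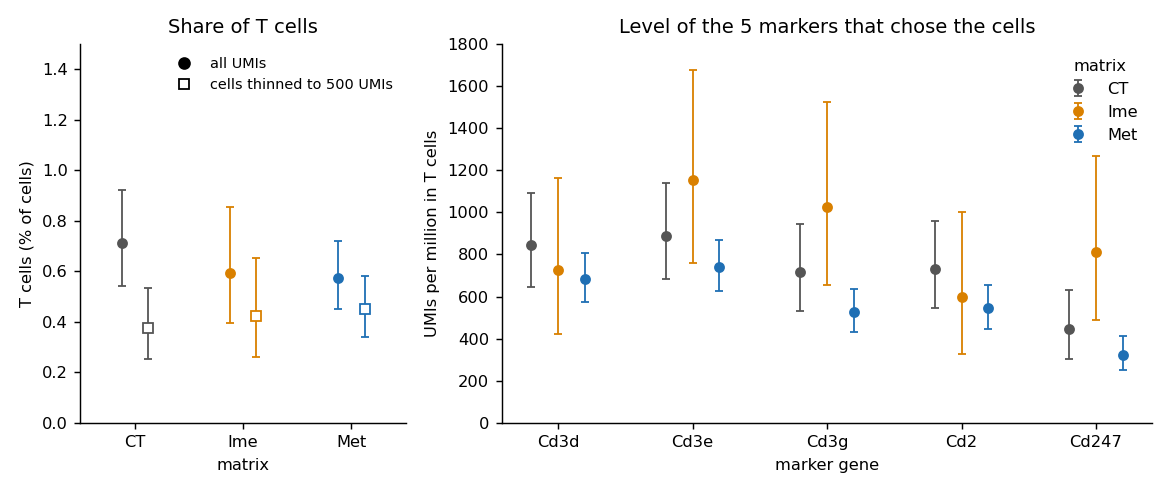
Left, share of T cells among the cells of each matrix in percent, with all UMIs (filled) and with every cell thinned to 500 UMIs (open). Right, CPM in T cells for the 5 markers that chose the cells. Bars are 95% exact intervals, which cover counting error only. The shares lie between 0.375% and 0.713% and the 3 intervals overlap within each setting.

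Genes of receptor signalling that the rule did not name were found in the T cells of all 3 matrices. The 22 genes of the T cell receptor complex and its signalling summed to 12936 CPM in CT, 10754 in Ime and 11388 in Met, with ratios to CT of 0.83 (0.72 to 0.96) and 0.88 (0.81 to 0.95). The same sum was 88.5, 85.0 and 97.3 CPM in Epcam-positive cells and 2051, 1944 and 1798 in B cells. Lat stood at 1289, 1238 and 1060 CPM and was detected in 68.4%, 53.6% and 82.4% of T cells. Lck stood at 1046, 1110 and 813 CPM, and Zap70 at 473, 469 and 486. Trac stood at 1089 (858 to 1363), 768 (455 to 1214) and 818 (698 to 952) CPM. The beta constant chains Trbc1 and Trbc2 are near-identical copies, so how their counts divide between them is uncertain. Cd28, the receptor of the second activating signal, stood at 186, 171 and 109.

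The 20 genes with the highest ratio of the T cell level to that of all other cells were led by Ccl5, Trac, Cd5, Cd7, Nkg7, Ctsw, Lat and Klrd1. Their ratios, as the geometric mean over the matrices, were 481, 397, 356, 353, 339, 273, 239 and 209. The others included Zap70, Skap1, Trbc1, Spn, Sh2d2a, Lck, Il27ra, Il2rb, Gimap3, Itgb7 and Grap2, at 88.4 to 193. These ratios follow from how the cells were chosen and are a description. Ccl5 encodes a chemokine of activated cytotoxic cells, Cd5 a receptor that dampens T cell receptor signals, Nkg7 a protein of cytotoxic granules and Klrd1 the CD94 chain of NK receptors. Ccl5 stood at 2349, 811 and 2354 CPM in T cells and at 1.93, 3.87 and 5.39 in all other cells.

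The T cells were divided by detection of Cd4 and of Cd8a or Cd8b1. In the CT matrix 10 T cells held only Cd4, 17 only Cd8, 0 both and 30 neither. In the Ime matrix 2 held only Cd4, 2 only Cd8, 0 both and 24 neither. In the Met matrix 19 held only Cd4, 19 only Cd8, 2 both and 34 neither. The share with neither was 52.6% (39.0% to 66.0%), 85.7% (67.3% to 96.0%) and 45.9% (34.3% to 57.9%), and the Ime interval lay above the other 2. After thinning each T cell to 800 UMIs, which left out 15, 14 and 2 shallower cells, the share with neither was 59.5% (43.3% to 74.4%), 78.6% (49.2% to 95.3%) and 66.7% (54.6% to 77.3%). The 3 thinned intervals overlapped, among cells still chosen at full depth and with 14 of the 28 Ime cells left.

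Cd4 stood at 244 (142 to 390) CPM in CT, 85.4 (10.3 to 308) in Ime and 213 (154 to 287) in Met. Cd8a stood at 573 (409 to 780), 85.4 (10.3 to 308) and 342 (266 to 433) CPM. Cd8b1, the beta chain of the CD8 pair, had 26 UMIs in the CT T cells, 65 in the Met T cells and 0 of 23432 in the Ime T cells. For 0 UMIs in the Ime T cells the exact interval reaches 157 CPM, and the floor of 3 counts is 128 CPM. In Epcam-positive cells, which should lack these genes, Cd4 was detected in 0.635%, 0.270% and 2.83% of cells and Cd8a in 0.198%, 0.193% and 0.771%, far under the T cell shares of 17.5%, 7.14% and 28.4% for Cd4. The Ime interval of Cd8a lay below that of CT and overlapped that of Met, while its Cd4 interval overlapped both. Without T cells in droplets shared with another matrix, the CT share of only Cd8 was 19.5% (8 of 41 cells), against 29.8% (17 of 57) with them, and the Met share was 27.4%, against 25.7%.

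**Figure D2:**
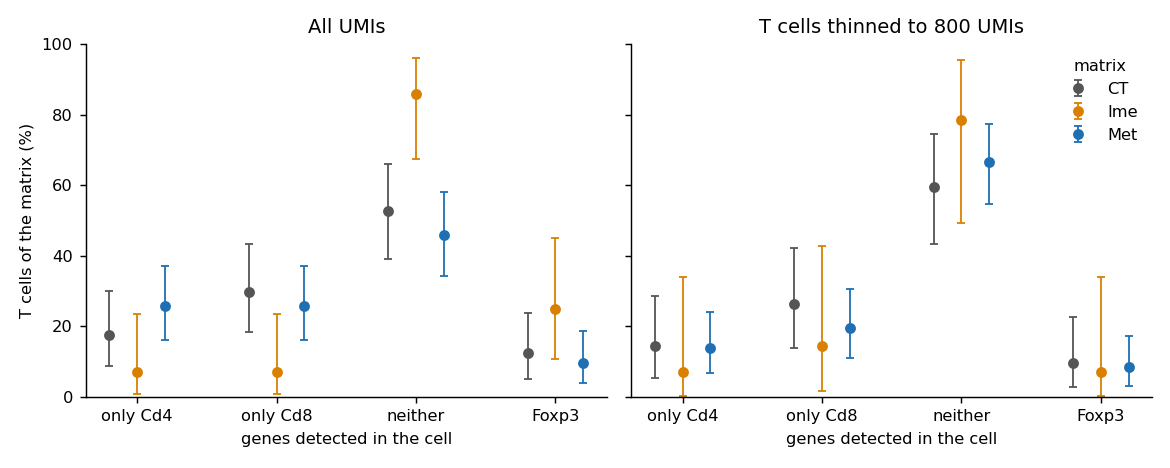
Share of T cells of each matrix, in percent, with UMIs of only Cd4, only Cd8 (Cd8a or Cd8b1), neither, or Foxp3. Left, all UMIs. Right, T cells thinned to 800 UMIs. Bars are 95% exact binomial intervals. The share with neither is 85.7% in the Ime matrix on the left, and its interval overlaps the others on the right.

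Cells that held only Cd8 also held genes of killing and of residence in the epithelium. The genes named for these classes, and the classes other than those of Cd4 and Cd8, were chosen after seeing values, and the cells are pooled over the matrices, so the counts are a description. Depth differs between the classes: the median was 2091.5 UMIs in cells with only Cd8, 1805 with only Cd4, 1099 with Foxp3 and 2795 with Gzma or Gzmb, against 1283 in all T cells. Among 38 cells with only Cd8, Ctsw, the granule protease cathepsin W, was found in 30, Trac in 30, Nkg7 in 23 and Runx3, a transcription factor of the CD8 lineage, in 23. Runx3 was found in 40 of the 121 other T cells. Ccl5 was found in 17 of the 38 and stood at 5034 CPM there, against 1154 in the other T cells. Itgae was found in 14 of the 38 and in 18 of the 121. Foxp3 and Ctla4, genes of regulatory T cells, were found in 0 of the 38.

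Cells that held only Cd4 seldom held Nkg7, Ctsw or Ccl5, while Trac was found in 22 of 31 and Runx3 in 8. Among 31 such cells, Nkg7 was found in 2, Ctsw in 3, Ccl5 in 4 and Gzma in 0, while the other 128 T cells held Nkg7 in 50 and Ctsw in 68. Cd5 was found in 17 of the 31 and in 41 of the 128, and Cd40lg, the ligand by which helper cells activate B cells, in 8 and 8. Foxp3 was found in 9 of the 31 and in 12 of the 128.

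Foxp3, the transcription factor that defines regulatory T cells, was found in 7 T cells of each matrix, 12.3% of the CT, 25.0% of the Ime and 9.46% of the Met T cells. In Epcam-positive cells it was found in 0.139%, 0.231% and 0.617%. The T cells held 14, 23 and 18 UMIs of Foxp3, at 201 (110 to 337), 982 (622 to 1473) and 89.2 (52.9 to 141) CPM, and the Ime interval lay above the other 2. After thinning to 800 UMIs the shares were 9.52%, 7.14% and 8.33%, with 4, 1 and 6 cells. The thinned intervals overlapped, and 14 of the 28 Ime T cells were too shallow to enter them.

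The 21 Foxp3-positive cells held other genes of the regulatory program more often than the other 138 T cells did in these counts. Ctla4, a receptor that restrains activation, was found in 13 of 21 and in 4 of 138. Ikzf2 (Helios) was found in 15 of 21 and in 37 of 138. Il2ra, the alpha chain of the interleukin-2 receptor, was found in 11 of 21 and in 18 of 138, and Icos, a costimulatory receptor, in 10 of 21 and in 23 of 138. Nkg7 and Cd7 were found in 0 of 21, against 52 and 43 of 138. Cd4 itself was detected in 9 of 21, 0 of them in the Ime matrix.

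The regulatory list summed to 1619 (1334 to 1946) CPM in CT, 3670 (2936 to 4533) in Ime and 1160 (1016 to 1318) in Met. The Ime-to-CT ratio was 2.27 (1.69 to 3.03), and 1.89 to 2.37 over the other settings tried. The Met-to-CT ratio was 0.72 (0.57 to 0.90), and 0.58 to 0.79 over the other settings. Within the list Ikzf2 stood at 430, 1024 and 312 CPM, but it was also found in 15.5%, 13.3% and 23.8% of Epcam-positive cells. Ctla4 stood at 287, 299 and 69.4, Il2ra at 115, 341 and 203, and Il10, an anti-inflammatory cytokine, had 1, 0 and 0 UMIs.

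Receptor constant genes were compared to set gamma delta cells beside alpha beta cells. An alpha beta constant gene alone was found in 34, 11 and 43 T cells of CT, Ime and Met, both kinds in 10, 1 and 27, neither kind in 12, 10 and 4, and a gamma delta constant gene alone in 1, 6 and 0. After thinning, the last class held 2, 4 and 3 cells, since thinning also removes single UMIs of the alpha beta genes. The 7 cells held Trdc, the delta constant chain, in 4 and Trgc4, a gamma constant chain, in 5. Cd160 and Itgae were found in 4 of the 7 each, while Cd5 was found in 0 of 7. Some of the gamma constant genes are near-identical copies, so how counts divide among those copies is uncertain. Trdc stood at 129 (59.0 to 245), 469 (234 to 840) and 282 (214 to 366) CPM, and the Ime value rested on 11 UMIs in 3 cells, 7 of them in 1 cell. The gamma delta list summed to 802, 1920 and 1259 CPM, with an Ime-to-CT ratio of 2.39 (1.58 to 3.61) and a Met-to-CT ratio of 1.57 (1.17 to 2.13). The list is not specific to T cells, since it stood at 1346 to 1649 CPM in macrophages.

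The granzyme genes were carried by few cells, while 1 or more gene of the cytotoxic list was found in 37 of 57, 15 of 28 and 50 of 74 T cells. The granzyme gene Gzma had 47 UMIs in 3 CT cells, 38 of them in 1 cell, 1 UMI in the Ime T cells and 113 UMIs in 7 Met cells, 65 of them in 1 cell. Gzmb had 8, 1 and 91 UMIs, in 3, 1 and 11 cells. Leaving out the cell with the most UMIs of the gene took Gzma from 673 to 134 CPM in CT and from 560 to 242 in Met. Prf1 (perforin), which opens the target membrane, had 3, 0 and 26 UMIs. Nkg7 stood at 630 (458 to 846), 299 (120 to 616) and 951 (822 to 1096) CPM. Ctsw stood at 817, 768 and 748, with overlapping intervals.

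The 21 cells with Gzma or Gzmb included cells with NK cell genes. Ncr1, a receptor of NK cells and some innate lymphoid cells, was found in 5 of the 21 and in 2 of the other 138. Fcer1g, a signalling chain of NK and myeloid cells, was found in 10 of 21 and in 13 of 138. Cd5 was found in 2 of 21 and in 56 of 138, and Ccr7 in 0 of 21. Trac was found in 12 of 21. NK cells carry Cd247 and Cd2, and the rule can therefore admit them.

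The cytotoxic list of 18 genes summed to 5644 CPM in CT, 4310 in Ime and 7007 in Met, against 10.5, 12.3 and 22.4 in Epcam-positive cells. Its Ime-to-CT ratio was 0.76 (0.61 to 0.95) and ran from 0.70 to 1.08 over the other settings. Its Met-to-CT ratio was 1.24 (1.11 to 1.39) and ran from 0.99 to 1.36. Neither ratio kept its side of 1 under every setting. The natural intraepithelial lymphocyte list summed to 2564, 3030 and 4618 CPM, with a Met-to-CT ratio of 1.80 (1.53 to 2.13) that ran from 1.38 to 1.98 over the other settings. Within it Xcl1, a chemokine that draws dendritic cells, had 3, 11 and 84 UMIs, and Cd7, a surface glycoprotein of T and NK cells, had 28, 11 and 192 UMIs, 68 of the 192 in 1 cell.

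Genes that place T cells in tissue were measured in all 3 matrices. Itgae stood at 186 (99.2 to 318), 213 (69.3 to 498) and 391 (310 to 488) CPM and was detected in 12.3%, 17.9% and 27.0% of T cells, or 7.14%, 21.4% and 19.4% after thinning. Itgb7, the beta chain that pairs with Itgae and with Itga4, stood at 874 (668 to 1123), 982 (622 to 1473) and 1328 (1174 to 1497). Itga4 stood at 458, 683 and 317, and Itgb2, the chain shared by the leukocyte integrins, at 860, 683 and 1011. The gut homing list summed to 3166, 3286 and 3895 CPM, with ratios to CT of 1.04 in Ime and 1.23 (1.06 to 1.43) in Met.

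The summed level of genes of naive and recirculating T cells was lower in both other matrices than in CT. The list summed to 3825 (3380 to 4312) CPM in CT, 2646 (2029 to 3392) in Ime and 2691 (2469 to 2927) in Met. The Ime-to-CT ratio was 0.69 (0.52 to 0.91), and 0.48 to 0.78 over the other settings. The Met-to-CT ratio was 0.70 (0.61 to 0.82), and 0.61 to 0.85 over the other settings. In all other cells together the ratios were 0.81 and 0.65, and B cells carried the list at 2623, 2150 and 2540 CPM. Klf2, the transcription factor that maintains the exit receptor S1pr1, stood at 759 (569 to 993), 341 (147 to 673) and 327 (253 to 416). In the other cells the ratio of Klf2 to CT was 0.63 in Ime and 0.51 in Met. Tcf7 stood at 401, 171 and 253 CPM, Lef1 at 372, 427 and 198, and Satb1 at 329, 469 and 292, so the last 2 were not lower in Ime.

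Helper programs were thinly covered. Tbx21, the type 1 regulator T-bet, had 12, 0 and 27 UMIs, Cxcr3, its chemokine receptor target, 18, 1 and 50, and Ifng (interferon gamma) 3, 1 and 5. The type 1 list summed to 1046, 939 and 1343 CPM against 4.05 to 8.37 in Epcam-positive cells. The type 17 cytokines Il17a and Il17f had 0 UMIs in CT and Ime and 1 and 2 in Met, and Il22 had 1, 0 and 0. The type 17 list summed to 315, 384 and 575 CPM in T cells and to 172 to 205 in Epcam-positive cells.

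**Figure D3:**
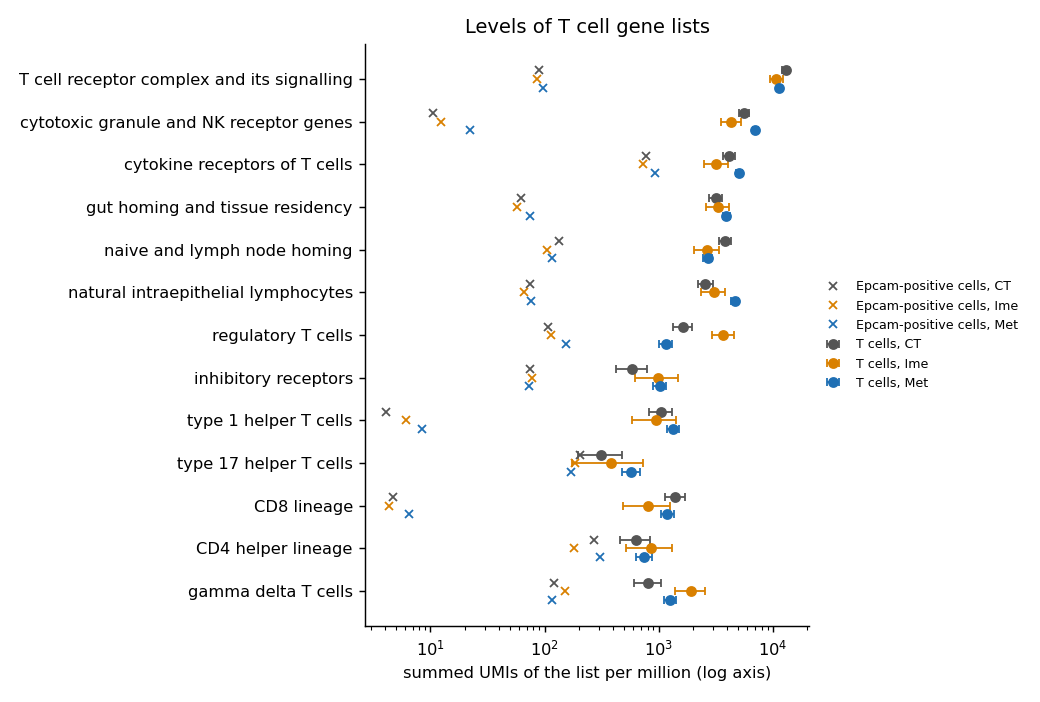
Summed CPM (log axis) of 13 lists of T cell genes in T cells (circles, with 95% exact Poisson intervals) and in Epcam-positive cells (crosses) of each matrix. The T cell receptor list lies at 10754 to 12936 CPM in T cells and at 85.0 to 97.3 in Epcam-positive cells, whereas the type 17 list lies at 315 to 575 and at 172 to 205.

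Matrices were compared gene by gene for 287 genes whose mean level would give 10 or more UMIs in the shallowest matrix. Of these, 20 were at least 2-fold higher in Ime than in CT (6.97%) and 23 at least 2-fold lower (8.01%), and the median ratio was 1.03. In Met, 19 were at least 2-fold higher than in CT (6.62%) and 12 at least 2-fold lower (4.18%), with a median ratio of 0.91. When the matrices were scaled by the median of gene ratios, 23 were higher and 7 lower in Met, so the share of higher genes among those past 2-fold went from 61.3% to 76.7%. Both comparisons share the CT matrix. A call here is a ratio of size, not a test. The mean level that admitted genes was over the 3 matrices, so a gene could enter through the matrix where it is high. Klrd1 (358, 768 and 258 CPM in CT, Ime and Met), Trp53inp1 (258, 768 and 273) and Psd4 (229, 640 and 421) entered through Ime. The counts past 2-fold are therefore a description. Without the T cells in shared droplets 146 genes were compared, of which 11 were higher and 12 lower in Ime, and 8 higher and 5 lower in Met.

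Over all 287 genes, 6.97% were past 2-fold higher and 8.01% lower in Ime, and 6.62% and 4.18% in Met. Of the 13 receptor signalling genes compared, 0 were past 2-fold in either matrix. With these shares, 0 among 13 genes does not show that the list was unchanged, and the next lists hold fewer genes still. Among 4 cytotoxic genes, Ccl5 and Nkg7 were past 2-fold lower and Klrd1 past 2-fold higher in Ime, and 0 were past it in Met. Among 5 cytokine receptor genes, Il27ra, Il2rb and Il2rg were past 2-fold lower in Ime and 0 in Met. Il2rb, the beta chain shared by the interleukin-2 and interleukin-15 receptors, stood at 444 (302 to 630), 128 (26.4 to 374) and 728 (615 to 856) CPM, and Il2rg, the common gamma chain, at 716, 299 and 748. The Ime value of Il2rb rested on 3 UMIs. In the other cells the Ime-to-CT ratio of Il2rb was 1.81.

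Among genes at least 2-fold higher in T cells than in other cells, 10 per direction were ranked by the bound of their ratio nearest to 1. The 2-fold condition used the mean over the matrices, so a gene could pass it through the matrix where it is high, and the ranking is a description. In CT alone Cd74 stood at 745 CPM in T cells and 719 in the other cells, and H2-Eb1 at 0.96 times the level of the other cells, so both passed through Ime and Met. Trp53inp1 was 2-fold over the other cells in Ime alone, at 3.94 times, against 1.49 in CT and 1.998 in Met. Of the 35 genes ranked, 25 were at least 2-fold over the other cells in all 3 matrices. In CT 4 were not: Cd74, H2-Eb1, Trp53inp1 and Myh9 (1.97). In Ime the highest were H2-Eb1 at 4.96 (2.52 to 10.1), Fgl2, which encodes a secreted effector of regulatory T cells, at 4.47 (2.17 to 9.50), and Cd74 at 2.46 (1.61 to 3.76). They were followed by Trp53inp1, Ikzf2, Cd37, Gbp8, Psd4, Gimap8 and Id2, at 2.01 to 2.98. Gbp8 stood at 2.15 in the other cells as well. In Ime the lowest were Ccl5 at 0.35 (0.20 to 0.56), Laptm5 at 0.37 (0.18 to 0.70) and Atxn2l at 0.28 (0.07 to 0.78). Adgrg5, Flna, Il2rb, Il2rg and Klf2 followed at 0.29 to 0.45, and the interval of Anxa6 reached 1.04. In the other cells Ccl5 had an Ime-to-CT ratio of 2.01.

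In Met the highest were Cd74 at 3.29 (2.47 to 4.46), H2-Eb1 at 3.85 (2.27 to 7.04) and Fgl2 at 2.87 (1.64 to 5.41). Cd7 stood at 2.37 (1.59 to 3.66), but at 4.48 in the other cells. Adgre5 and Id2, a repressor that favours innate-like and resident lymphocytes, stood at 2.08 and 2.04, and Ly6e, Srgn, Itgal and Myh9 at 1.69 to 1.91, not past 2-fold. In Met the lowest were Sirt7 at 0.36 (0.23 to 0.56) and Peli1, a ubiquitin ligase that restrains T cell activation, at 0.37 (0.24 to 0.57). They were followed by Rsrp1, Ski, Klf2, Tmsb10, Kcnn4 and Fam53b, at 0.41 to 0.50, and by Srsf1 at 0.50 and Gimap4 at 0.59, which were not past 2-fold. Sirt7, Kcnn4, Rsrp1, Srsf1, Klf2 and Gimap4 had ratios of 0.39 to 0.53 in the other cells, so their direction was shared with the rest of the matrix. All 40 ranked ratios kept their side of 1 under all 7 other settings. An interval could still include 1, as that of Cd74 in Ime did with 3 or more markers (0.59 to 2.44).

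**Figure D4:**
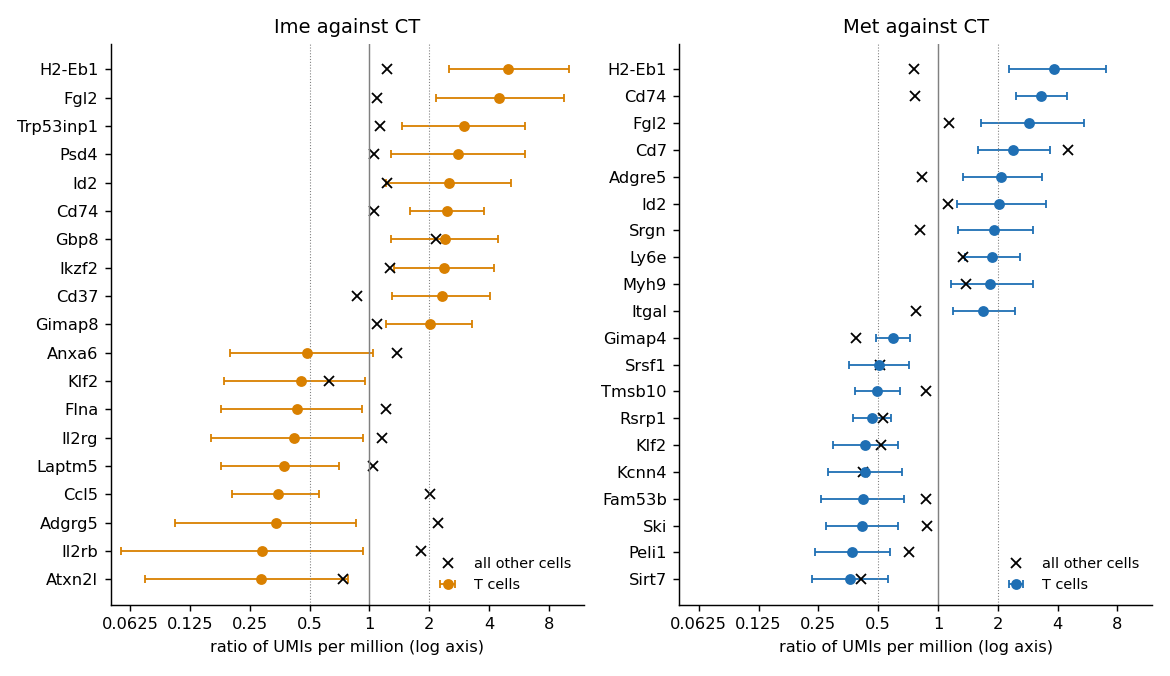
Ratio of CPM (log axis) in T cells (circles, with 95% exact intervals) and in all other cells (crosses) for the genes ranked highest and lowest, Ime against CT and Met against CT. Dotted lines mark 2-fold. Crosses near circles, as for Gbp8 in Ime and Kcnn4 in Met, show a ratio that the other cells share.

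The genes of antigen presentation and those of B and plasma cells were both higher in the Ime and Met T cells than in those of CT. The MHC class II list stood at 1375, 3756 and 4420 CPM in T cells, with ratios to CT of 2.73 (2.02 to 3.69) in Ime and 3.21 (2.60 to 4.01) in Met. Over the other settings the Ime ratio ran from 1.22 to 2.84 and the Met ratio from 2.20 to 3.73. In B cells the list stood at 19829 to 29256. Cd74, the invariant chain, had 52, 43 and 494 UMIs, of which the 3 cells with the most held 46.2%, 65.1% and 51.4%. It was detected in 36.8%, 32.1% and 70.3% of T cells and in 35.3%, 23.2% and 70.7% of Epcam-positive cells, which are deeper. Its level in Epcam-positive cells was 293, 306 and 417 CPM, against 745, 1835 and 2448 in T cells. With 3 or more markers the Ime-to-CT ratio of Cd74 in T cells was 1.24 (0.59 to 2.44). Without the 5% of T cells with the most UMIs this ratio was 1.42 (0.85 to 2.32), so both intervals included 1. The 15 genes of B and plasma cells summed to 1232, 8237 and 6551 CPM in T cells, with ratios to CT of 6.69 in Ime and 5.32 in Met. The T cell with the most of these UMIs held 11 of 86, 63 of 193 and 231 of 1322. The median share of a T cell's UMIs was 0.0916%, 0.279% and 0.211%. Igha, the IgA heavy chain that plasma cells secrete, had 14, 78 and 554 UMIs, and Cd79a was 0 by the rule. The part of this RNA in the MHC class II values was not tested.

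Epithelial RNA also differed. The 20 epithelial genes made up a median of 0.349%, 0.160% and 1.05% of the UMIs of a T cell. In Epcam-positive cells the same genes without Epcam, which chose those cells, made up 3.99%, 3.09% and 5.01%. Epcam, Reg3b and Reg3g were at 0 in T cells of all 3 matrices. The summed level ran from 5335 to 10401 CPM over the matrices. The mucin gene Muc2 had 124 UMIs in the CT T cells, 86 of them in 1 cell, 54 in the Ime T cells, 49 of them in 1 cell, and 371 in 70 of 74 Met cells. The ratio of the epithelial sum to CT was 0.98 in Ime and 1.92 in Met, and that of the endothelial sum 0.08 and 0.53. The Ime endothelial sum was 1 UMI, and the Met endothelial ratio ran from 0.46 to 2.39 over the other settings. Smooth muscle genes stood at 2235, 128 and 1650 CPM, from 156, 3 and 333 UMIs. Of these, 1 CT cell held 90 and 1 Met cell held 274. The Met-to-CT ratio of the smooth muscle sum ran from 0.21 to 1.75 over the other settings. Macrophage genes stood at 344, 469 and 882 CPM, with 7, 8 and 0 of 13 at 0 in the T cells. Genes of mast cells and granulocytes had 0, 0 and 2 UMIs, and those of enteric glia had 0. The part of this RNA in the other results was not tested.

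Lists of energy metabolism, stress, proliferation and interferon response had ratios to CT of 0.79 to 1.23 in T cells. Metformin is known for inhibiting mitochondrial complex I, and the nuclear genes of its subunits stood at 3796, 3115 and 4222 CPM, against 7973, 9031 and 9079 in Epcam-positive cells. Their ratio to CT was 0.82 (0.62 to 1.07) in Ime and 1.11 (0.97 to 1.28) in Met. The integrated stress response list had ratios of 0.79 (0.46 to 1.31) and 1.03 (0.79 to 1.35), and the cell cycle list 0.80 (0.49 to 1.27) and 0.99 (0.78 to 1.28). The interferon-induced list had ratios of 0.99 (0.74 to 1.30) and 1.06 (0.91 to 1.25) in T cells, while in all other cells they were 1.43 and 2.43. Glycolysis genes had ratios of 0.80 (0.56 to 1.12) and 1.23 (1.03 to 1.47), and of these intervals only the last leaves out 1.

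T cell genes were then tested in bulk colon after 4 weeks of drug, in libraries that the choice of cells did not use. The 9 libraries held 32236291 to 44373717 counts. Nothing in the labels ties each replicate to a mouse of its own, and the p-values reflect only the spread among these libraries, which may be technical. Counts were tested with edgeR's quasi-likelihood test over 18665 genes with Benjamini-Hochberg adjustment, called at 0.05. Levels are again CPM, here of reads. The library sizes behind them are those of the genes tested, adjusted by edgeR's TMM normalization factors. In bulk tissue, fewer T cells and less RNA per T cell cannot be told apart. Of 148 genes of the T cell lists, 123 passed the filter on low counts. With metformin, 23 of these fell (18.7%) and 1 rose, against 8.04% of all genes that fell and 11.6% that rose. Their median log2 fold change was -0.62, and that of all genes was -0.05. With imeglimin, 5 fell (4.07%) and 0 rose by edgeR, against 5.07% and 7.97% of all genes, with a median of -0.24 against -0.02, and 19 had an unadjusted p under 0.05. DESeq2 called 9 lower and 0 higher with imeglimin. Both comparisons share the control libraries.

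The number that fell with metformin depended on single libraries. It was 56 without metformin library 1, 7 without metformin 2 and 5 without metformin 3. It was 8, 13 and 9 without control 1, 2 or 3, and 19 to 23 without an imeglimin library. With imeglimin the number was 10 without metformin library 1, 2, 1 and 0 without control 1, 2 or 3, and 1, 0 and 0 without imeglimin 1, 2 or 3. With the batch as a block it was 29 for metformin and 3 for imeglimin.

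The B cell markers Cd79a, Cd79b, Ms4a1 and Cd22 varied along with these genes. Their sum was 57.7, 62.6 and 68.5 CPM in the controls, 47.1, 25.8 and 13.2 with imeglimin, and 50.02, 5.89 and 4.01 with metformin. Metformin library 1 thus lay near the controls, and libraries 2 and 3 lay far below them. Ptprc stood at 38.3, 38.6 and 41.6 CPM in controls, 29.8, 22.3 and 16.3 with imeglimin and 34.0, 8.52 and 9.69 with metformin. Epcam was 1345 to 1424 CPM in controls, 1494 to 1677 with imeglimin and 1742 to 1779 with metformin, and the groups did not overlap. Of the genes of B and plasma cells, 0 of 15 were called by edgeR with metformin (median log2 fold change -1.33, 2 at an unadjusted p under 0.05). Cd79a differed by -1.74 ± 0.72 (SE, edgeR adjusted p = 0.115), and with the batch as a block its adjusted p was 0.0203. Without metformin library 1 it was -3.34 (edgeR adjusted p = 0.00292). Of 14 genes of macrophages and dendritic cells, 1 was called lower with metformin (C1qa) and 12 had a negative log2 fold change, with a median of -0.37 and 5 at an unadjusted p under 0.05. The part of B cells, macrophages and epithelial cells in the T cell values was not tested.

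The receptor markers were low in bulk colon. Cd2 stood at 2.43, 1.88 and 2.53 CPM in the 3 control libraries, 1.69, 1.37 and 0.651 with imeglimin and 1.33, 0.507 and 0.716 with metformin. All metformin libraries lay below all controls. Cd2 fell with metformin by 1.43 on the log2 scale (SE 0.42, edgeR adjusted p = 0.0380), and differed by -0.89 ± 0.41 with imeglimin (edgeR adjusted p = 0.184). The Cd2 call was lost without any 1 control library, imeglimin 2, metformin 2 or metformin 3 (edgeR adjusted p of 0.0157 to 0.125 over the 9 left-out libraries).

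Cd3e stood at 1.67, 0.779 and 1.12 CPM in controls and at 1.16, 0.241 and 0.358 with metformin. The groups overlapped, and the difference of -1.04 ± 0.59 was not called (edgeR adjusted p = 0.234). Cd3g stood at 1.42, 1.15 and 1.12 CPM in controls and 1.19, 0.459 and 0.430 with metformin (-0.84 ± 0.39, edgeR adjusted p = 0.154). Cd3d (edgeR adjusted p = 0.496) and Cd247 (edgeR adjusted p = 0.142) were not called either. Without metformin library 1, edgeR called Cd3e (-1.98, adjusted p = 0.0337), Cd3g (-1.46, adjusted p = 0.0122) and Cd247 (-2.17, adjusted p = 0.0113) lower. Trac stood at 1.67, 1.70 and 1.00 CPM in controls, 1.71, 0.899 and 0.814 with imeglimin and 0.960, 0.459 and 0.430 with metformin. It differed by -1.25 ± 0.43 with metformin (edgeR adjusted p = 0.0653), and was called with the batch as a block (edgeR adjusted p = 0.0251), without metformin library 1 (0.0280) and by DESeq2 (adjusted p = 0.0428). Lat was also called only with the block (edgeR adjusted p = 0.0342) or without metformin library 1 (0.0475).

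Genes of naive and recirculating T cells fell in the largest share with metformin among the T cell lists, at 6 of 10, against 8.04% of all genes. Bach2, Ccr7, S1pr1, Satb1 and Tcf7 were among these 6. Ccr7, the chemokine receptor that guides cells into lymph nodes, stood at 2.20, 1.73 and 1.91 CPM in controls, 0.925, 0.757 and 0.907 with imeglimin and 1.21, 0.314 and 0.382 with metformin. It fell with metformin by 1.63 on the log2 scale (SE 0.45, edgeR adjusted p = 0.0305). Its call was lost without any 1 control library, metformin 2 or metformin 3, with adjusted p up to 0.0961. Bach2, a repressor that keeps T cells quiescent, stood at 19.1, 16.6 and 14.8 CPM in controls, 6.91, 7.76 and 3.00 with imeglimin and 8.64, 2.85 and 3.92 with metformin. Every drug library lay below every control library. Bach2 fell with both drugs, by 1.72 with metformin (SE 0.42, edgeR adjusted p = 0.0188) and by 1.52 with imeglimin (SE 0.42, edgeR adjusted p = 0.0410). The metformin call of Bach2 was lost without control 1, metformin 2 or metformin 3, with adjusted p up to 0.0666. B cells also express Ccr7 and Bach2.

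In other lists a smaller share fell with metformin, against 8.04% of all genes. Calls of 1 gene among 5 or 7, or of 2 among 9, do not set a list apart from that share. Of the receptor signalling list, 4 of 21 fell (Bcl11b, Cd27, Fyn and Thy1), of the gut homing list 4 of 12 (Cd69, Itga4, Itgb2 and Rgs1), of the cytokine receptors 4 of 12 (Il10ra, Il2rg, Tgfbr1 and Tgfbr2) and of the inhibitory receptors 2 of 9 (Cd200 and Lag3). Of the type 17 list 1 of 5 fell (Rora, edgeR adjusted p = 0.00924), and of the type 1 list 1 of 7 (Stat4). Stat4, which carries interleukin-12 signals, stood at 1.92, 1.73 and 2.89 CPM in controls, 1.20, 0.591 and 0.954 with imeglimin and 0.875, 0.604 and 0.239 with metformin. It fell with metformin by 1.94 on the log2 scale (SE 0.45, edgeR adjusted p = 0.0152), and the call was lost without control 3 (0.0578) or metformin 2 (0.0528). Itgb2 stood at 8.54, 8.34 and 6.90 CPM in controls, 4.05, 4.16 and 5.70 with imeglimin and 5.62, 2.90 and 3.03 with metformin, a fall of 1.05 on the log2 scale with metformin (edgeR adjusted p = 0.0208). Its call was lost without control 1 or 2 or metformin 2 or 3, with adjusted p up to 0.0835. Thy1 stood at 7.40, 7.01 and 7.52 CPM in controls and 5.31, 5.09 and 4.66 with metformin. It fell by 0.54 on the log2 scale (SE 0.13, edgeR adjusted p = 0.0189), a call lost without control 1 or 3 or metformin 2 or 3 (up to 0.0671).

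The cytotoxic, intraepithelial, gamma delta, CD8, CD4 and regulatory lists gave no lower call in bulk with metformin. Since 8.04% of all genes fell, 0 calls among 3 to 13 tested genes do not show that a list was spared. Their median log2 fold changes were, in this order, -0.38, -0.26, -0.27, -0.92, -0.35 and -0.52, against -0.05 for all genes. By edgeR, 0 of 12 cytotoxic genes were called (0 at an unadjusted p under 0.05), 0 of 13 natural intraepithelial genes (1), 0 of 8 gamma delta genes (1), 0 of 3 CD8 lineage genes (1) and 0 of 4 CD4 lineage genes (1). Ccl5 differed by 0.31 (edgeR adjusted p = 0.590), Cd8a by -0.80 (edgeR adjusted p = 0.189) and Trdc by -1.21 (edgeR adjusted p = 0.0750). In the regulatory list 0 of 12 genes fell and Areg rose, from 21.1, 24.6 and 15.3 CPM in controls to 52.3, 38.3 and 37.4 with metformin (log2 fold change 1.07 ± 0.24, edgeR adjusted p = 0.0141). Without control 3 edgeR called 0 genes of the T cell lists higher, so this call was lost. Areg encodes an epidermal growth factor ligand that epithelial cells also make, and it had 0, 1 and 4 UMIs in the T cells of CT, Ime and Met, while 35.8% of Epcam-positive cells of Met held it. Of the 104 list genes at least 10-fold higher in T cells than in Epcam-positive cells, 89 were tested. With metformin 17 of them fell (19.1%, against 8.04% of all genes), with a median log2 fold change of -0.84. With imeglimin 0 fell (10 at an unadjusted p under 0.05), against 5.07% of all genes.

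**Figure D5:**
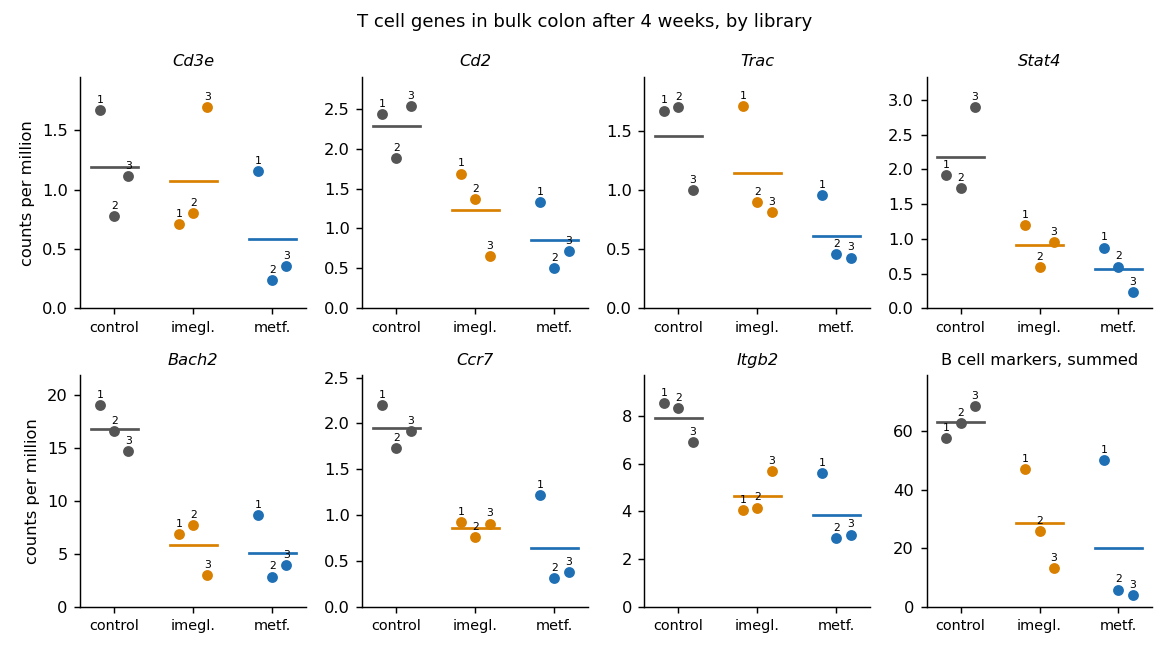
CPM of 7 T cell genes and of the summed B cell markers in the 9 bulk colon libraries after 4 weeks, by group. Points are libraries labelled with their replicate number and lines are group means. Metformin library 1 lies above metformin libraries 2 and 3 in every panel.

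With imeglimin the 5 genes that fell were Bach2, Bcl11b, Cd200, Foxo1 and Tgfbr2. Bcl11b, a transcription factor of T cell identity, differed by -0.57 ± 0.16 (edgeR adjusted p = 0.0431), and with the batch as a block its adjusted p was 0.0727. Its call was also lost without control 2 or 3, any 1 imeglimin library, or metformin 2 or 3, with adjusted p up to 0.156. The call of Bach2 was lost without any 1 control or imeglimin library, with adjusted p up to 0.112. Of the 104 more T cell-specific genes none was called with imeglimin by edgeR, as given above. The single-cell matrices came after 12 weeks of drug and the bulk libraries after 4 weeks, and no test between them was made.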

How the data were processed

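Colon was fixed, dissociated and hybridized with 10x Fixed RNA Profiling probes, per the labels' protocols. The authors deposited UMI counts for 19070 genes, and the file headers name Cell Ranger 9.0.0. Bulk colon libraries were made with a stranded mRNA kit per the labels' protocols, and the authors deposited read counts per gene. The submitters' processing notes name HISAT2, StringTie, mm10 and GRCm39 without their roles, and the sources used here do not say whether counting used strand. All 9 bulk columns matched a label, leaving 0 unmapped.

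CPM (summed UMIs of a gene per 1000000) and exact intervals were computed in Python 3.11.15 with scipy 1.17.1. Genes with a mean of at least 427 CPM were compared between matrices, and a matrix at 0 was set to 3 counts. No doublet caller was run, since the members are 159 cells. Bulk counts were fitted with edgeR 4.0.16 in R 4.3.3 (TMM, filterByExpr, 9 libraries in 1 fit). Alternatives were DESeq2 1.42.0, no filter, a batch block, 2 groups only, and leaving out each library. On simulated data the fit found 59.6% of 2-fold and 86.7% of 4-fold changes, with 8 false calls, among 18665 genes. The 200 changed genes were picked at random over all levels, and every gene was drawn independently. These rates therefore do not carry over to T cell genes that are low or vary together.

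A batch tag in the labels matches the replicate number of every bulk library, which pairs the libraries. Deviations from the group means correlated at a mean of 0.0687 (-0.0286 to 0.171) in 9 same-numbered pairs, 3 of them over 0.1. The mean in the other pairs was -0.0344. Deviations cancel within a group, so this second mean nearly follows from the first and gives no separate contrast. Replicates differed by more than sampling noise (chi-square per gene of 23.9 to 149).

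The members and the gene lists were chosen with earlier results of these data known. Named genes are the 5 markers, the 20 highest ratios to other cells, up to 10 per direction in each matrix comparison, and list members in order of their level. In bulk they are the markers and T cell list members. Results for some of these genes are not reported here.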

Additional observations from a re-analysis of the deposited data

How the results depend on the processing

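Of 27 alternative values for the share of T cells, 17 stayed within the interval of the reported one. With 1 or more marker the shares were 1.93%, 2.01% and 1.03% in CT, Ime and Met, and with 3 or more 0.375% in CT and 0.254% in Ime. With Ptprc also required they were 0.475% in CT and 0.296% in Ime, after thinning to 500 UMIs 0.375% in CT and 0.449% in Met, and without the Epcam condition 1.68% in Met. Of 54 subset values 51 stayed within the interval: with 3 or more markers only Cd4 was 0% in Ime, and after thinning to 800 UMIs the Met shares of only Cd4 and of neither were 13.9% and 66.7%. Of 280 values for the 40 named ratios 274 stayed within the interval of the reported one, and all 280 kept their side of 1. The numbers of genes past 2-fold differed between settings, as did the number of genes compared (287 as reported). With 3 or more markers, 45 were compared, and they were 5 higher and 1 lower in Ime and 5 and 2 in Met. With 20 expected UMIs per gene (55 compared) they were 5 and 3 in Ime and 6 and 2 in Met, and with 5 expected UMIs, which admits more genes (982), 105 and 94 in Ime and 53 and 46 in Met. Without the T cells with the most UMIs (5%; 219 genes) 11 were lower in Ime and 5 in Met. With 500 detected genes (226 compared) 7 were lower in Met, and with median-of-ratios scaling (287) 7. Without T cells in shared droplets (146), 11 were higher and 12 lower in Ime, and 8 and 5 in Met.

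In bulk colon, leaving out 1 library moved the number of T cell genes called lower with metformin from 5 to 56 and called higher from 0 to 2, and with imeglimin from 0 to 10 lower and from 0 to 1 higher. Over all genes these ranges were 594 to 1564 lower and 1356 to 2476 higher with metformin, and 334 to 824 lower and 598 to 1375 higher with imeglimin. DESeq2 and the fit of only 2 groups each called 2 higher with metformin, and the fit of 2 groups called 1 higher with imeglimin. With imeglimin 9 were called lower by DESeq2, 9 with 2 groups only, 2 with no filter and 3 with the replicate block. With metformin 29 were called lower with the replicate block, 30 by DESeq2, 20 with no filter and 21 with 2 groups only. Of 338 values for single genes, 256 kept their call, 65 lost it, 17 gained it, and all kept their sign. The block changed no call of these genes beside those of Trac, Lat, Cd79a and Bcl11b. Single-cell precision is limited by 23432 UMIs in all Ime T cells.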
